A study of Caenorhabditis elegans with 4 samples.

Results

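The genes described here are 9 innate immune effector genes of Caenorhabditis elegans: sysm-1 (T24B8.5), C17H12.8, irg-4 (F08G5.6), irg-5 (F35E12.5), irg-1 (C07G3.2), irg-6 (C32H11.1), dod-24 (C32H11.12), dod-22 (F55G11.5) and dod-17 (K10D11.1). They were taken by sequence name as known immune response genes under a rule that names no measured value, though earlier results of these data were known when it was written, and a gene with several transcript lines was represented by the line that summed highest across the libraries. They are 9 of 17096 genes in the table, and 5 of them (sysm-1, irg-1, C17H12.8, irg-4 and dod-24) reached 10 reads in some library and entered the test. Each gene had a single transcript line except dod-22, whose other line had 0 reads in every library.

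The study used these libraries as one case of a condition that lengthens life, to set ageing on a Bacillus diet beside ageing on standard food. Wild-type N2 worms were fed either Bacillus subtilis PY79 or the standard laboratory food Escherichia coli OP50, and whole worms were taken for RNA at day 13 or day 4 of adulthood. This gave 4 groups, PY79 day 13, PY79 day 4, OP50 day 13 and OP50 day 4, with 1 library each made from a population of worms. Libraries were 3SEQ libraries, in which reads come from the 3′ ends of polyadenylated transcripts, so a gene's reads were not divided by its length and levels were compared between libraries only, not between genes.

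C. elegans has no antibody-based immunity, and its intestine meets ingested bacteria directly. A conserved p38 MAP kinase pathway, in which the adaptor TIR-1 and the kinases NSY-1, SEK-1 and PMK-1 act in turn and the transcription factor ATF-7 is a target of PMK-1, sets the level of secreted effectors in the intestine. Other effectors depend on the bZIP factor ZIP-2 or lie downstream of the insulin pathway's factor DAF-16, and the GATA factor ELT-2 drives most genes of the differentiated intestine. Many of these effectors are widely used as reporters because pathogens such as Pseudomonas aeruginosa induce them strongly.

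The chosen transcripts held 4469802 reads on PY79 at day 13, 4838114 on PY79 at day 4, 28552961 on OP50 at day 13 and 28650595 on OP50 at day 4. Depth on OP50 was thus 6.39 times that on PY79 at day 13 and 5.92 times at day 4. Ribosomal protein genes took 54.3% to 61.5% of the reads in each library. Levels are given as counts per 1000000 reads (CPM) after trimmed mean of M values (TMM) scaling, and 3 reads, the limit that a count of 0 allows, correspond to 0.513 CPM on PY79 at day 13, 0.556 on PY79 at day 4, 0.141 on OP50 at day 13 and 0.114 on OP50 at day 4. A library with 0 reads therefore bounds a level less tightly on PY79 than on OP50. Ratios between libraries are given with exact 95% Clopper-Pearson intervals, which cover counting error only since no group has a second library. A gene was called higher or lower between 2 libraries at a 2-fold difference or more with an interval that left out 1, and where a library had 0 reads the interval alone decided and the fold is a bound set by 3 reads in that library. Such a bound, written as at least, takes the count of the other library as exact. It is therefore not a limit of the interval and can lie above that limit. Ratios between diets depend on the scaling. Without the 3% most abundant genes the median log2 ratio of PY79 over OP50 shifts up by about 0.75 at day 13 and 0.74 at day 4. A ratio with 0 reads in a library can shift less, as that of irg-1 at day 4 did, from -3.90 to -3.76.

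As a whole these genes were scarcely detected. Their reads summed to 76 on PY79 at day 13, 280 on PY79 at day 4, 93 on OP50 at day 13 and 537 on OP50 at day 4, or 13.0, 51.9, 4.39 and 20.3 CPM in the same order. Of the 9 genes, 4 had no read on PY79 at day 13, 3 on PY79 at day 4, 6 on OP50 at day 13 and 1 on OP50 at day 4. Both sums at day 13 were below both at day 4, and the OP50 day 13 library held fewest of the genes. Of its 93 reads 91 were from irg-1, and the other 8 genes together had 72 reads on PY79 at day 13, 280 on PY79 at day 4, 2 on OP50 at day 13 and 512 on OP50 at day 4. In the PY79 day 13, PY79 day 4 and OP50 day 4 libraries most reads were from sysm-1, with 51, 221 and 348. The sums thus mostly follow single genes.

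**Figure D1:**
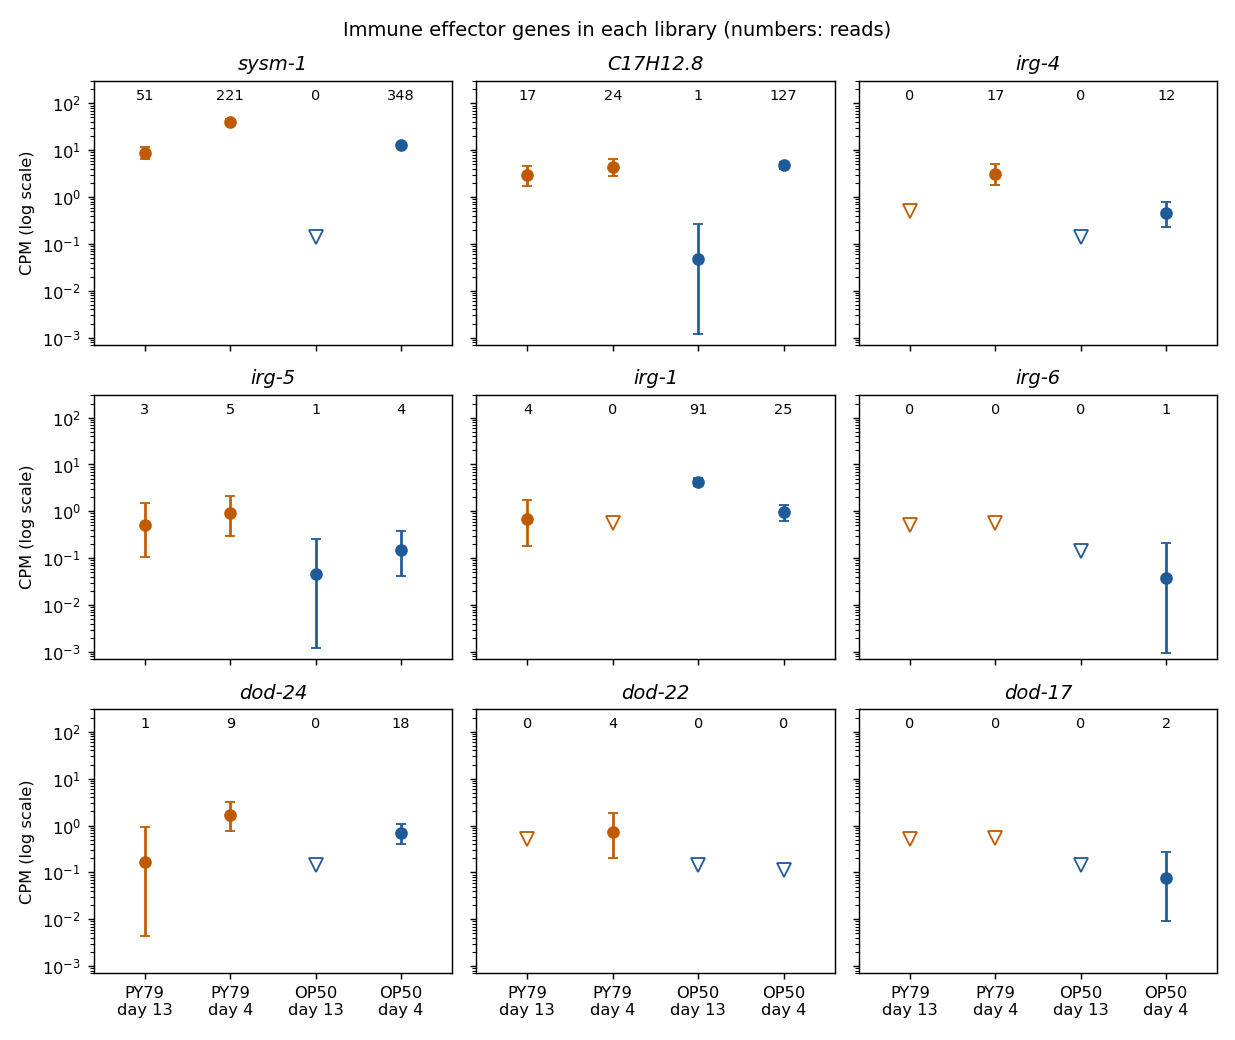
Level of each of the 9 immune effector genes (CPM after TMM scaling, log axis) in the PY79 day 13, PY79 day 4, OP50 day 13 and OP50 day 4 libraries, with 95% Poisson counting intervals as bars, read counts as numbers and open triangles at the 3-read floor where a library had 0 reads. sysm-1 had 51, 221, 0 and 348 reads in this order, irg-1 had 4, 0, 91 and 25, and the other 7 genes had 127 reads or fewer in any library.

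Among the genes that depend on the p38 pathway, sysm-1 had the most reads. It encodes a small secreted protein of the ShK toxin type, and its promoter is a common reporter of p38 activity. There were 51 reads (8.72 CPM) on PY79 at day 13 and 221 (40.9 CPM) on PY79 at day 4, and on OP50 there were 0 reads at day 13 and 348 (13.2 CPM) at day 4. The gene was thus still detected in old worms on PY79 and not in old worms on OP50, in the deeper library. With age it was 4.69-fold lower on PY79 (3.45 to 6.50) and at least 93.1-fold lower on OP50. PY79 worms had at least 61.6-fold more than OP50 worms at day 13 and 3.11-fold more (2.61 to 3.69) at day 4. An empty count after so many reads was rare: of 3353 genes with at least 100 reads on OP50 at day 4, 10 had 0 at day 13, and sysm-1 had the second most reads at day 4 among those 10.

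C17H12.8, a p38-dependent gene, had the next most reads among them. It had 17 reads (2.91 CPM) on PY79 at day 13 and 24 (4.45 CPM) on PY79 at day 4, with 1 read (0.0472 CPM) on OP50 at day 13 and 127 (4.81 CPM) on OP50 at day 4. Its level lay between 2.91 and 4.81 CPM in 3 libraries, and the OP50 day 13 library was far below them. On PY79 the difference with age was 1.53-fold lower with an interval that includes 1 (0.788 to 3.03), whereas on OP50 it was 101.9-fold lower (18 to 4058). PY79 worms had 61.6-fold more than OP50 worms at day 13 (9.66 to 2576), while at day 4 they had 1.08-fold less (0.695 to 1.75), which was called in neither direction. The day 4 ratio changed sign with the scaling, since its log2 value of -0.11 became 0.16 with total reads and 0.66 without the 3% most abundant genes. A piRNA gene is annotated within C17H12.8 on the same strand. The counts do not separate the pair, though the libraries were made from polyadenylated RNA.

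The PY79 ratio of day 13 to day 4 was 64.3 times the OP50 ratio for C17H12.8, with a counting interval of 9.26 to 2806. For sysm-1, with 0 reads on OP50 at day 13, the same quotient had a lower counting limit of 15.3 and no upper limit. These intervals compare 4 single libraries, so whether ageing acted differently on the 2 diets was not tested.

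Both irg-4 and irg-5 encode secreted proteins with a CUB-like domain and need PMK-1 for their induction. For irg-4 there were 0 reads on PY79 at day 13 and 17 (3.15 CPM) on PY79 at day 4, against 0 on OP50 at day 13 and 12 (0.454 CPM) on OP50 at day 4. It was seen in both young libraries and in neither old one. The difference with age was at least 6.14-fold lower on PY79 and at least 3.21-fold lower on OP50, and the bounds are set by depth. At day 4 PY79 worms had 6.93-fold more than OP50 worms (3.12 to 15.9), and at day 13 no ratio can be given. irg-5 had 3 and 5 reads on PY79 at day 13 and day 4 and 1 and 4 on OP50 at day 13 and day 4. These counts gave a ratio at day 4 of 6.12-fold higher in PY79 worms (1.32 to 30.8), and the differences with age were 1.81-fold lower on PY79 (0.351 to 11.6) and 3.21-fold lower on OP50 (0.318 to 158), both with intervals that include 1.

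irg-1 ran the other way on both axes. It is induced by P. aeruginosa and by blocked translation and requires ZIP-2 rather than PMK-1. It had 4 reads (0.684 CPM) on PY79 at day 13 and 0 on PY79 at day 4, against 91 (4.29 CPM) on OP50 at day 13 and 25 (0.946 CPM) on OP50 at day 4. The OP50 day 13 library held most of its reads and was the highest in CPM, and each of the p38-dependent genes above had 0 or 1 read there. With age irg-1 was 4.54-fold higher on OP50 (2.89 to 7.37). On PY79 the bound set by 3 reads was 1.23-fold higher, but the interval includes 1, so no rise is shown there. PY79 worms had 6.27-fold less than OP50 worms at day 13 (2.37 to 23.5) and at least 1.70-fold less at day 4, where no call was made once the libraries were scaled to their reads without the 3% most abundant genes.

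The remaining 4 genes also encode CUB-like proteins. irg-6, another infection response gene, had a single read, on OP50 at day 4. dod-24, dod-22 and dod-17 belong to the genes downstream of DAF-16 that are lowered in long-lived insulin receptor mutants and raised by infection. dod-24 had 1 read (0.171 CPM) on PY79 at day 13 and 9 (1.67 CPM) on PY79 at day 4, against 0 on OP50 at day 13 and 18 (0.681 CPM) on OP50 at day 4. It was 9.75-fold lower with age on PY79, with a wide interval of 1.35 to 427, and at least 4.82-fold lower on OP50. Between diets at day 4 it was 2.45-fold higher in PY79 worms with an interval that includes 1 (0.968 to 5.74). dod-22 had 4 reads, all on PY79 at day 4, where its level was at least 6.52-fold that on OP50, and dod-17 had 2 reads, both on OP50 at day 4. At this depth no more can be said of irg-6, dod-22 and dod-17 with age than that no read came from an old worm library.

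Counted over the 5 tested genes, 3 were called lower and 0 higher with age on PY79, where 7.97% of the 9032 genes tested were called lower and 6.48% higher. On OP50 4 were lower and 1 (irg-1) higher, beside 18.9% of all tested genes lower and 14.6% higher. Between diets at day 13, 2 of the 5 (sysm-1 and C17H12.8) were higher on PY79 and 1 (irg-1) lower, beside 22.6% and 22.8% of all genes. At day 4, 2 of the 5 (sysm-1 and irg-4) were higher and irg-1 lower, beside 25.4% and 24.3%, and irg-5 and dod-22, which were below the filter, were also called higher. For the diet comparisons the shares of all genes called were so large that a call between diets does not set these genes apart. irg-4 and dod-24 passed the filter on reads through day 4 libraries alone, so their being lower with age follows in part from the filter. The same holds for irg-1 between diets, as it passed through OP50 libraries alone. Members below the filter are left out of these counts.

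**Figure D2:**
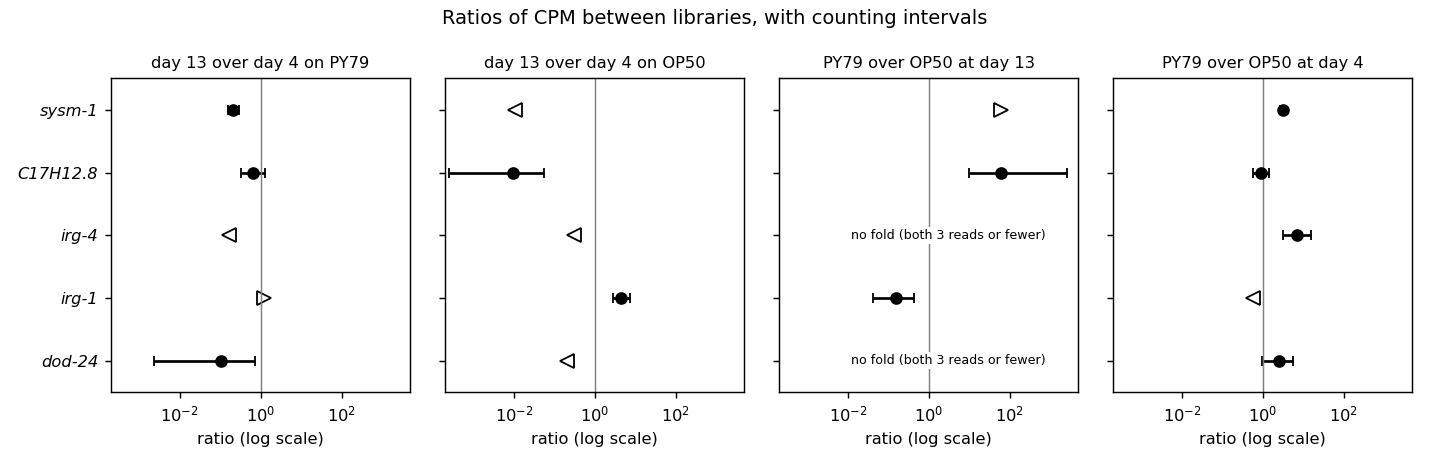
Ratios of the 5 tested genes between pairs of libraries (log axis, with 95% counting intervals) for day 13 over day 4 on each diet and PY79 over OP50 at each day, with open triangles where a library had 0 reads, placed at the bound and pointing beyond it. For sysm-1, C17H12.8, irg-4 and dod-24 the points with age are below 1 on both diets and for irg-1 they are above 1, though on PY79 the intervals of C17H12.8 and irg-1 include 1.

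An additive model of age and diet over all 4 libraries (edgeR quasi-likelihood test, Benjamini-Hochberg adjustment over 9032 genes) gave a test of each average difference with 1 residual degree of freedom. In it 4 of the 5 genes fell with age and 1 rose, beside 4.05% and 3.52% of all genes. Of those that fell, irg-4 and dod-24 had passed the filter through day 4 libraries alone, so their falls are not independent of it. sysm-1 fell by 4.25 on the log2 scale (edgeR adjusted p = 1.7e-06), dod-24 fell by 4.30 (edgeR adjusted p = 0.0268) and C17H12.8 fell by 2.73 (edgeR adjusted p = 0.00279). irg-4 also fell (edgeR adjusted p = 0.00166), with a fitted size that depends on the prior count since both day 13 libraries had 0 reads. irg-1 rose by 2.37 (edgeR adjusted p = 0.0273).

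With diet, 2 of the 5 genes rose on PY79 and 1 fell, beside 14.8% and 17% of all genes. The gene that fell, irg-1, had passed the filter through OP50 libraries alone. sysm-1 rose by 3.56 on the log2 scale (edgeR adjusted p = 3.91e-05), C17H12.8 rose by 1.65 (edgeR adjusted p = 0.0469) and irg-1 fell by 3.0 (edgeR adjusted p = 0.00448). irg-4 at 2.71 (edgeR adjusted p = 0.0523) and dod-24 at 1.58 (edgeR adjusted p = 0.295) did not pass. The call of C17H12.8 is an average over a day with a 61.6-fold difference and a day whose interval includes 1.

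The additive model does not describe sysm-1 and C17H12.8 closely. For sysm-1 it fitted 29.9 reads on PY79 at day 13, 535.5 on PY79 at day 4, 9.01 on OP50 at day 13 and 217.8 on OP50 at day 4, where 51, 221, 0 and 348 were counted, and for C17H12.8 it fitted 9.90 reads on OP50 at day 13, where 1 was counted. Its p-values also rest on a spread shared across all genes, as 1 residual degree of freedom says little of any single gene. All of these calls were lost when total reads replaced TMM for scaling (edgeR adjusted p of 0.158 to 0.542 for age and 0.0915 to 0.264 for diet) and none was made by DESeq2 (adjusted p of 0.118 to 0.468 for age and 0.0591 to 0.183 for diet, with no adjusted value for irg-4 and dod-24).

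**Figure D3:**
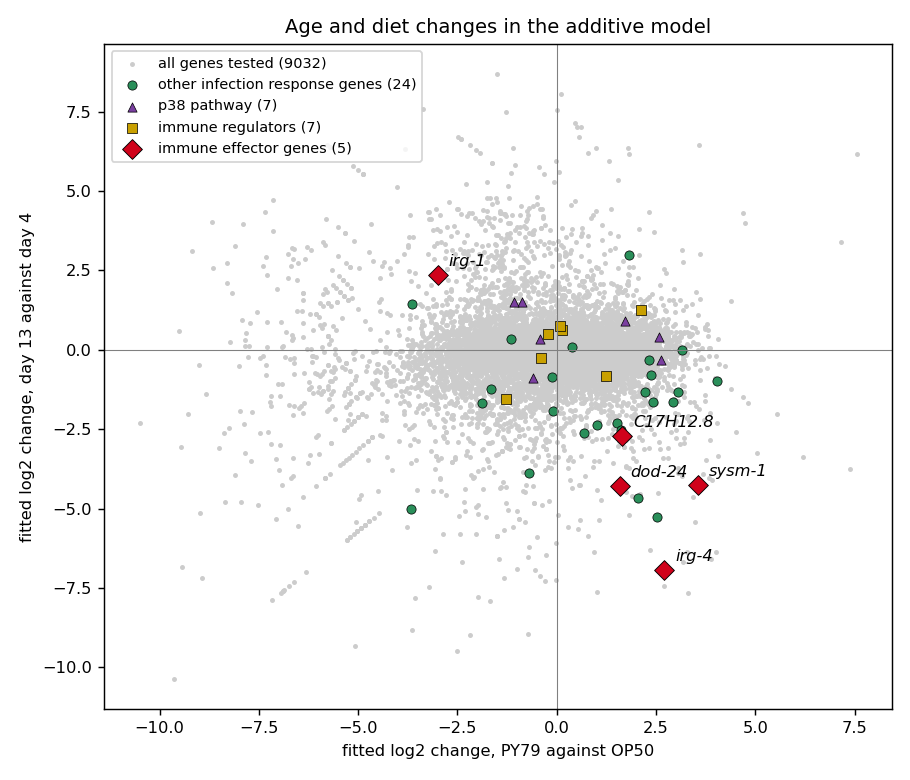
Fitted log2 difference of day 13 against day 4 (vertical axis) and of PY79 against OP50 (horizontal axis) in the additive model, for all 9032 genes (grey), 5 immune effector genes (red diamonds), 24 other infection response genes (green), 7 genes of the p38 pathway (purple) and 7 immune regulators (yellow). sysm-1 lies at -4.25 with age and 3.56 with diet, and irg-1 lies on the opposite side of both axes at 2.37 with age and -3.0 with diet.

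No component of the p38 pathway passed the test for age. Of 8 genes in the list 7 were tested. With age 0 rose and 0 fell in the edgeR test, beside 3.52% and 4.05% of all genes. With diet 2 rose on PY79 and 0 fell, beside 14.8% and 17% of all genes. For age 2 of the 7 had an unadjusted edgeR p under 0.05, and DESeq2 also called 0. Their median log2 ratios with age were 0.59 on PY79 and 0.89 on OP50, beside -0.11 and 0.02 over all genes. The genes did not move together: between libraries 2 were called higher and 2 lower with age on OP50, beside 14.6% and 18.9% of all genes. On PY79 1 was called higher and 0 lower, beside 6.48% and 7.97%. nsy-1, the kinase at the top of the cascade, had 29 reads in each PY79 library, against 25 on OP50 at day 13 and 16 on OP50 at day 4, and was 4.21-fold higher on PY79 at day 13 (2.38 to 7.49) and 8.87-fold higher at day 4 (4.66 to 17.5). It rose with diet by 2.58 on the log2 scale (edgeR adjusted p = 0.000397). pmk-1, the p38 kinase itself, had 0 and 1 reads on PY79 at day 13 and day 4 and 1 and 6 on OP50 at day 13 and day 4, too few for the test.

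atf-7 was at 81.6 CPM on PY79 at day 13 and 45.2 on PY79 at day 4, against 5.71 on OP50 at day 13 and 16.6 on OP50 at day 4. Both PY79 libraries were above both OP50 libraries, and the OP50 day 13 library was the lowest, as it was for sysm-1 and C17H12.8. That library was also the lowest for genes outside the cascade such as lys-7 and irg-3, though not for zip-2. A low level there is therefore not particular to atf-7 and these effectors. Older worms had 1.80-fold more on PY79 (1.54 to 2.11) and 2.91-fold less on OP50 (2.38 to 3.59). With diet atf-7 rose by 2.63 on the log2 scale (edgeR adjusted p = 0.000444). With total reads scaling the call of nsy-1 was kept and that of atf-7 was lost, and DESeq2 made both.

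Of 10 immune regulators outside the cascade 7 were tested. With age 0 rose and 0 fell in the edgeR test, beside 3.52% and 4.05% of all genes. For age 2 of the 7 had an unadjusted edgeR p under 0.05, and DESeq2 called 0. Between libraries 3 were called higher and 2 lower with age on OP50, beside 14.6% and 18.9% of all genes. On PY79 0 were called higher and 0 lower, beside 6.48% and 7.97%. With diet 1 rose and 0 fell, beside 14.8% and 17% of all genes, so the count is near the share of all genes. The gene that rose was zip-2, on which irg-1 depends. zip-2 was at 97.5 CPM on PY79 at day 13 and 65.8 on PY79 at day 4, against 36.1 on OP50 at day 13 and 9.27 on OP50 at day 4. It was therefore higher on PY79 at both days, by 2.70-fold at day 13 (2.42 to 3.01) and 7.09-fold at day 4 (6.01 to 8.38), where irg-1 was lower on PY79. zip-2 rose with diet by 2.12 on the log2 scale (edgeR adjusted p = 0.00234), and this call was kept with total reads scaling and by DESeq2. Within each diet the day 13 library had more of it, by 1.48-fold on PY79 (1.30 to 1.70) and 3.89-fold on OP50 (3.36 to 4.51), yet the average with age was 1.26 on the log2 scale and did not pass (edgeR adjusted p = 0.219).

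Other genes that respond to infection were detected more deeply. Of 30 in the list 29 were matched and 24 were tested. With age 9 fell and 1 rose in the edgeR test, beside 4.05% and 3.52% of all genes, and with diet 11 rose on PY79 and 4 fell, beside 14.8% and 17%. Their median log2 ratio was -1.23 with age on PY79 and -1.62 on OP50, and between diets it was 1.64 at day 13 and 1.20 at day 4. DESeq2 kept 8 of the 9 that fell with age and the 1 that rose, and total reads scaling kept 0 of either. For diet, DESeq2 kept 9 and total reads scaling 8 of the 11 that rose.

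F01D5.5, a gene induced by infection, had the smallest adjusted p of these, with 7 and 111 reads on PY79 at day 13 and day 4 and 0 and 160 on OP50 at day 13 and day 4. It fell by 5.27 on the log2 scale with age (edgeR adjusted p = 2.07e-09) and rose by 2.52 with diet (edgeR adjusted p = 0.0023), and like sysm-1 it had no read in old OP50 worms. F01D5.5 passed the filter on reads through day 4 libraries alone, so its fall with age follows in part from the filter. F01D5.1, its neighbour by name, had 12 and 130 reads on PY79 and 56 and 1234 on OP50 at day 13 and day 4, and fell by 3.87 with age (edgeR adjusted p = 1.19e-06). hpo-6, whose loss makes worms hypersensitive to a pore-forming toxin, had 1 and 9 reads on PY79 and 14 and 722 on OP50 at day 13 and day 4. It fell by 5.02 with age (edgeR adjusted p = 7.38e-07) and fell with diet by 3.66 (edgeR adjusted p = 0.000309). hpo-6 passed the filter through OP50 libraries alone, so its fall with diet follows in part from the filter.

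Further genes of the list passed the test for diet and not for age. lys-7, a lysozyme gene under DAF-16, had 3604 and 1760 reads on PY79 at day 13 and day 4, against 763 and 1847 on OP50 at day 13 and day 4. It was 17.1-fold higher on PY79 at day 13 (15.8 to 18.5) and 4.66-fold higher at day 4 (4.37 to 4.98), and rose by 3.16 on the log2 scale (edgeR adjusted p = 8.66e-06). With age lys-7 ran opposite ways, at 616 and 326 CPM on PY79 and 36.0 and 69.9 on OP50 at day 13 and day 4. Its average with age of -0.02 on the log2 scale combines the 2, and their difference was not tested. asp-12, an aspartyl protease gene, had 14 and 35 reads on PY79 and 5 and 7 on OP50 at day 13 and day 4, and rose with diet by 4.03 (edgeR adjusted p = 1.34e-06). As asp-12 passed the filter on reads through PY79 libraries alone, its rise follows in part from the filter.

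irg-2, picked out after its values were seen because it was the only tested gene of the list that rose with age, had 42 and 4 reads on PY79 at day 13 and day 4 and 39 and 7 on OP50 at day 13 and day 4. Like irg-1 it is an infection response gene, and it rose by 2.98 on the log2 scale (edgeR adjusted p = 0.000401). irg-2 passed the filter on reads through day 13 libraries alone, so its rise with age follows in part from the filter. Its age ratios were 9.69-fold higher on PY79 (3.52 to 37.2) and 6.94-fold higher on OP50 (3.07 to 18.4). Unlike irg-1 it was higher on PY79, with a diet difference of 1.81 (edgeR adjusted p = 0.0255).

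Since the libraries were made from whole worms, fewer intestinal cells and less RNA of a gene per cell cannot be told apart. Summed over 12 intestine markers the level was 137.6 CPM on PY79 at day 13 and 504 on PY79 at day 4, against 255 on OP50 at day 13 and 1001 on OP50 at day 4. The sum at day 4 was 3.66 times that at day 13 on PY79 and 3.92 times on OP50, and the PY79 sum over the OP50 sum was 0.540 at day 13 and 0.504 at day 4. These sums were carried by the gut protease genes asp-1 and cpr-6, which held 25882 of 26439 reads on OP50 at day 4. Without that pair, an alternative chosen after seeing the data, the day 4 sum was 1.77 times the day 13 sum on PY79 and 1.70 times on OP50, and the diet ratio turned to 1.25 at day 13 and 1.31 at day 4. For the 9 immune effector genes the day 4 sum was 3.99 times the day 13 sum on PY79 and 4.63 times on OP50. Without irg-1, likewise left out after its values were seen, that ratio was 4.21 on PY79 and 205 on OP50, the last against 2 reads. Outside the OP50 day 13 library most reads of the effector sums were from sysm-1. Of the 12 markers 2 had 0 reads on PY79 at day 13 and none did in the other libraries.

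Gene by gene the intestine markers moved less clearly than their sum. Of 11 tested, 1 (cpr-6) fell with age and 1 (vha-6) rose with diet in the edgeR test, beside 4.05% and 14.8% of all genes. The median log2 ratio with age was -1.31 on PY79 and -1.32 on OP50. Between diets the median was -0.08 at day 13, where 2 were called higher on PY79 and 1 lower, beside 22.6% and 22.8% of all genes. At day 4 the median was 0.97, with 6 called higher and 4 lower, beside 25.4% and 24.3% of all genes. elt-2 had 7 and 10 reads on PY79 at day 13 and day 4, against 35 and 185 on OP50 at day 13 and day 4. It did not pass for age (log2 difference -1.56, edgeR adjusted p = 0.144) or diet (-1.27, edgeR adjusted p = 0.125). Markers of some other tissues also moved with age, as 5 of 8 body muscle markers fell and 5 of 6 sperm markers rose, beside 4.05% and 3.52% of all genes. DESeq2 kept all of these calls and total reads scaling kept 0. Of 4 epidermis markers tested 1 rose and 1 fell, and of 10 germline markers 0 rose and 1 fell. Of 4 neuron and 4 pharynx markers tested 0 rose and 0 fell. The part of intestinal content in the age differences of the immune effector genes was not tested.

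**Figure D4:**
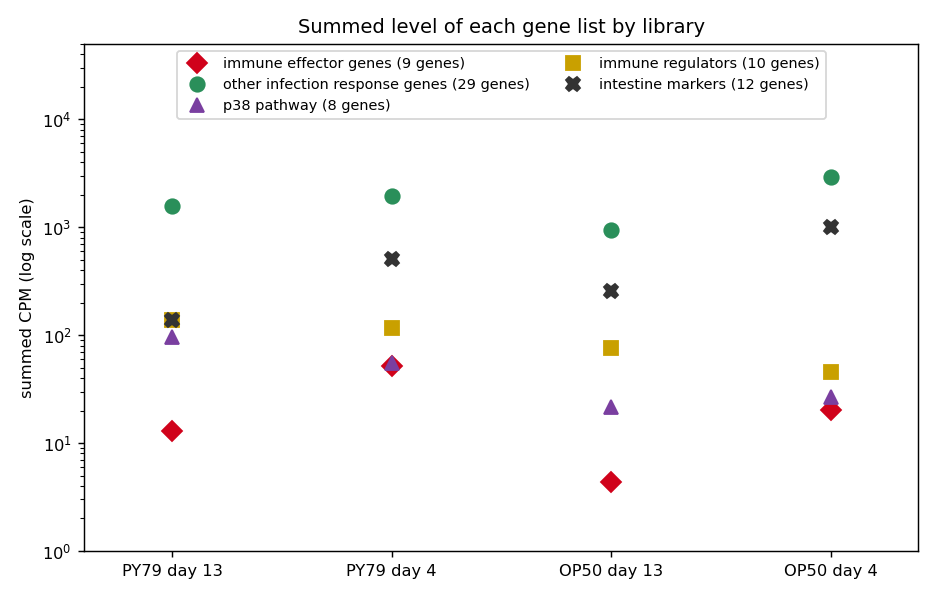
Summed level (CPM after TMM scaling, log axis) of the immune effector genes and of the gene lists set beside them in the PY79 day 13, PY79 day 4, OP50 day 13 and OP50 day 4 libraries. The immune effector genes sum to 13.0, 51.9, 4.39 and 20.3 CPM and the intestine markers to 137.6, 504, 255 and 1001 CPM in this order, so both sums are lower at day 13 on each diet. The marker sum is carried by asp-1 and cpr-6, and the effector sum on OP50 at day 13 by irg-1 with 91 of 93 reads. On PY79 at day 13, PY79 at day 4 and OP50 at day 4 sysm-1 holds 51 of 76, 221 of 280 and 348 of 537 effector reads.

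The genes most like each tested member over the 4 libraries were found by Euclidean distance between centred log2 CPM profiles, which 4 libraries describe only coarsely. F01D5.5 was nearest to sysm-1, at a distance of 2.01. Only tested genes outside the members were searched. As sysm-1 had 0 reads on OP50 at day 13, its distances depend on the prior count and on read depth. A large distance therefore does not show that no gene followed sysm-1. clec-65, a C-type lectin gene, was nearest to C17H12.8 at 0.127, with 49 and 69 reads on PY79 at day 13 and day 4 and 6 and 403 on OP50 at day 13 and day 4. Like C17H12.8 it was low in the OP50 day 13 library alone. C32H11.4 was nearest to irg-4 at 0.409 and shares a clone name with irg-6 and dod-24. gst-10 had the same 4 counts as dod-24, and T23F6.3 was nearest to irg-1 at 0.344, which at such low counts says little.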

How the data were processed

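RNA was sequenced from 4 whole-worm 3SEQ libraries, 1 per diet and day. The authors aligned reads with Bowtie 0.12.7 and deposited a table of raw read counts per transcript; build, annotation, counting tool and strand setting: not given in the sources used here. The study's methods mention FUDR for young and old transcriptomes in general. Of 24775 transcript lines, 2 named no gene and held 0 reads. Per gene, the transcript with most reads was kept, and 16760 of 17096 genes matched the Ensembl annotation.

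Counts were scaled by TMM and tested with edgeR 4.0.16 (R 4.3.3) as diet plus age on the 9032 genes that reached 10 reads in some library, at an adjusted p of 0.05. Pairs of libraries were compared by Clopper-Pearson intervals of the read split. DESeq2 1.42.0, other scalings and filters were alternatives, and scripts were tested on simulated data. The members and gene lists were chosen with earlier results of these data known.

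All 9 members are named, with up to 5 genes per list by smallest adjusted p, and elt-2, zip-2, pmk-1 and atf-7. A rule on neighbouring genes by protein similarity could not be applied, as no protein sequences were used here. The 3 nearest genes per member were computed, and those named were picked from them.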

Additional observations from a re-analysis of the deposited data

Results flagged for a closer look

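C17H12.8 had log2 ratios of PY79 over OP50 of opposite sign at the 2 days. The ratio was 4.69 at day 13 and -0.11 at day 4, from 17 reads against 1 and 24 reads against 127. The counting interval at day 4 includes 1 and its sign turned with the scaling, to 0.16 with total reads and 0.66 without the 3% most abundant genes, so no opposite direction is shown at day 4. With 1 library per group the difference between the days was not tested.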

How the results depend on the processing

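With 1 library per group no difference has a replicate check, leaving out any library leaves no residual degrees of freedom, and an interaction of age and diet cannot be tested. No paired analysis was possible because each group holds 1 library. Total reads scaling left 0 genes that rose and 1 that fell with age (edgeR, 1077 at unadjusted p under 0.05) and 484 that fell with diet. With it, 0 of the 5 immune effector genes rose and 0 fell with age (4 of 5 at unadjusted p under 0.05), and 0 rose and 0 fell with diet (3 of 5 unadjusted). It gave 1401 genes that rose with diet, so the split of rises and falls moved, beside 1334 and 1538 with TMM. DESeq2 called 164 rises and 149 falls with age and 517 rises with diet, but 0 immune effector genes rose and 0 fell with age (5 of 5 unadjusted), and 0 rose and 0 fell with diet (1 of 5 unadjusted). Requiring 10 reads in every library gave 92 rises and 101 falls with age and left no immune effector gene to test. Without the 3% most abundant genes 2741 genes rose and 778 fell with diet, and 0 immune effector genes were called lower on PY79 at day 4. DESeq2 size factors and no low-count filter each left 1 immune effector gene that rose with diet, in place of 2, and no filter gave 854 rises over all genes. DESeq2 size factors gave 1101 rises and 1719 falls with diet. C17H12.8 lost its diet call with DESeq2 size factors (edgeR adjusted p = 0.0758) and with a robust fit (edgeR adjusted p = 0.0515), irg-4 gained one with a robust fit (0.0436) and without the 3% most abundant genes (0.0086), and dod-24 lost its age call with summed transcript lines (0.0531). C17H12.8 between diets at day 4, called in neither direction, changed sign to 0.16 with total reads and 0.66 without the 3% most abundant genes. No other value of the results recomputed here changed sign. Total reads scaling shifted the median log2 ratio over all genes by 0.19 with age on PY79, by -0.30 on OP50 and by 0.77 and 0.26 between diets at day 13 and day 4. Leaving out the 3% most abundant genes shifted the median diet ratio over all genes by 0.75 at day 13 and 0.74 at day 4. With it sysm-1 at day 4 stood at 2.41 in place of 1.63 on the log2 scale. The causes of these changes were not tested.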

Other observations

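Worm sequence names carry the name of the clone they lie on, and 49 other genes share the 8 clone names of the immune effector genes, 18 of which were tested. In the edgeR test 0 of these rose and 2 fell with age (C32H11.4 and F55G11.4), beside 3.52% and 4.05% of all genes. Both that fell passed the filter on reads through day 4 libraries alone, so their falls follow in part from the filter. With diet 4 rose on PY79 and 1 fell, beside 14.8% and 17% of all genes. The gene that fell, C17H12.11, had passed the filter through OP50 libraries alone. The genes named here were picked after their values were seen. C32H11.4 had 0 and 16 reads on PY79 at day 13 and day 4 and 0 and 8 on OP50 at day 13 and day 4, so like irg-4 it was seen in young worms alone. It was 9.79-fold higher on PY79 at day 4 (3.95 to 26.4). C32H11.4 passed the filter through the PY79 day 4 library alone, so this difference too follows in part from the filter. F55G11.4 had 9 and 48 reads on PY79 and 5 and 85 on OP50 at day 13 and day 4, and fell by 3.09 on the log2 scale with age (edgeR adjusted p = 0.000159). F35E12.6, on the clone of irg-5, had 36 and 43 reads on PY79 and 7 and 88 on OP50 at day 13 and day 4, and was 18.6-fold higher on PY79 at day 13 (8.18 to 49.7). These pairwise values have no replicate check.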
